A study of Homo sapiens with 13 samples.

Results

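CSF1R, CD33, LCP1, CD4, CD86, TYROBP, SPI1, PTPRC, CD68 and CD14 are genes of myeloid and other blood cells, measured here in kidney-derived cells whose histone H3 lysine 9 methyltransferase G9a, or its partner WIZ, had been depleted or inhibited. They were chosen by name: every probe whose symbol in the per-array files is 1 of these 10, out of 21789 symbols on the array. The list itself was drawn up with earlier results of these data known. The 10 genes have 14 probes, 1 each for 9 of them and 5 for PTPRC.

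Each of the 13 arrays held treated RNA in one dye, Cy3 or Cy5, and its control RNA in the other. The cells were HEK293T, derived from human embryonic kidney and expressing SV40 large T antigen. Knockdown of WIZ, a zinc finger partner of G9a, was compared with control siRNA at 72 h over 2 biological replicates, both dye-swapped (4 arrays). Knockdown of G9a (gene EHMT2) was likewise compared with control siRNA at 72 h over 2 biological replicates, but only with treated RNA in Cy5 (2 arrays). Treatment with 1 µM UNC0638, a small-molecule inhibitor of G9a and its relative GLP, lasted 48 h and had DMSO as its vehicle control, in 5 biological replicates (7 arrays). Replicates 1 and 2 were dye-swapped, and in replicates 3 to 5 UNC0638 RNA was always in Cy5. The siRNAs came from Dharmacon and were delivered with DharmaFECT 4. The labels call the replicates biological without naming separate cultures, so p-values measure the spread between these samples, and they leave unsaid whether both knockdowns used 1 control RNA.

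G9a and GLP add methyl groups to lysine 9 of histone H3, a mark of silent genes. WIZ helps to hold the complex on chromatin. Blood cell genes are a class of lineage genes that a kidney-derived line does not use at the levels seen in leukocytes. CSF1R is the receptor for the growth factors CSF1 and IL34 on monocytes and macrophages, and SPI1 encodes PU.1, the transcription factor that binds purine-rich boxes in many myeloid promoters.

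The level of a gene is given as spot intensity in arbitrary units, which can be set against the same probe on other arrays of a like kind but not against another probe. A change is given as log2 of treated over control after background correction and loess normalization, averaged over the arrays of a biological replicate. A change was called where limma's moderated test, run over all 34143 kept probes, gave a Benjamini-Hochberg adjusted p under 0.05. A probe counted as well above background on an array where its signal exceeded the local background by more than 2.6 background SDs.

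The depletions were seen in the target genes. WIZ fell by 2.12 on the log2 scale under WIZ siRNA (adjusted p = 0.0018, limma) and EHMT2 fell by 1.66 under G9a siRNA (adjusted p = 0.00288). All 12 markers of the cell line on the list used, such as VIM and KRT18, were well above background in all 26 channels. Of the 10 blood genes, 3 were (LCP1, CD4 and CD14). The arrays fell into 2 sets by the pixel SD of the Cy3 background, whose lowest value was 4 to 5 on 8 arrays (all WIZ siRNA arrays and UNC0638 replicates 1 and 2, set 1) and 11 on 5 arrays (both G9a siRNA arrays and UNC0638 replicates 3 to 5, set 2). Each siRNA lies in 1 set, so set and siRNA cannot be told apart, and only UNC0638 spans both. UNC0638 replicate 3 stood apart: over all kept probes its ratios correlated with those of the 2 G9a siRNA replicates at 0.87 and 0.83, and with those of UNC0638 replicates 1, 2, 4 and 5 at 0.18, 0.15, 0.64 and 0.10 (9 replicates in all). Opposite-dye arrays of 1 RNA pair, turned the same way, correlated at -0.50 and -0.36 for WIZ siRNA and at 0.05 and 0.03 for UNC0638.

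The promoters of the genes that rose under UNC0638 are shown first. Each is the 250 bases before a RefSeq transcription start (GRCh38.p14), written 5′ to 3′ on the gene's strand. Capitals mark a purine-rich box of the kind PU.1 binds, searched as GAGGAA and its reverse complement TTCCTC. CSF1R has 2 starts in RefSeq, and the downstream one is that of macrophages.
CSF1R, downstream start, chr5:150086555-150086804, minus strand: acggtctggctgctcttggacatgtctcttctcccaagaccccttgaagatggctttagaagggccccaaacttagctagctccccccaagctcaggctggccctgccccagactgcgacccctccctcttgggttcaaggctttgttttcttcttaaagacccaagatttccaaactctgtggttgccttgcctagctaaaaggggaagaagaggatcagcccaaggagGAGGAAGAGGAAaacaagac
CSF1R, upstream start, chr5:150113366-150113615, minus strand: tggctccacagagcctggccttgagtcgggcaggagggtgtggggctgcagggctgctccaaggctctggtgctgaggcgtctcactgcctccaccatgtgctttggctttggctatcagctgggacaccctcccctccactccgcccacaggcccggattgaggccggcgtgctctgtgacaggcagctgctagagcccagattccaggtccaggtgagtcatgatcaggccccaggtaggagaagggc
CD33, chr19:51224830-51225079, plus strand: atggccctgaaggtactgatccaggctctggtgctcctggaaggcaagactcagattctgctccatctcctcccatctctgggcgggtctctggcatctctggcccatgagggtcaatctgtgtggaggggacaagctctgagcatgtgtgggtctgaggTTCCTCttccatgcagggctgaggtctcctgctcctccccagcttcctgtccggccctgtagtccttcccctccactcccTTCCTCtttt
LCP1, chr13:46182178-46182427, minus strand: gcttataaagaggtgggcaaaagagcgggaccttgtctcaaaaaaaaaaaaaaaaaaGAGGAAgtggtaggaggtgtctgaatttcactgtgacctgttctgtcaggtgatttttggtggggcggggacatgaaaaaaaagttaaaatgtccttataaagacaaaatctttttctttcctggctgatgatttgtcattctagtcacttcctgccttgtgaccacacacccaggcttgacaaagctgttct

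The downstream CSF1R window holds 2 such boxes, side by side, starting at bases -20 and -14 from the start, and the upstream window holds none. The CD33 window holds 2, at -90 and -10, and the LCP1 window 1, at -193. RefSeq gives 10 windows for 8 of the genes, and 7 of these windows hold a box, against 23.6% of all 35116 promoter windows of that length. Boxes are not particular to the genes that rose: the TYROBP window holds 2, 1 of the 2 CD86 windows holds 2, and the CD14 and CD68 windows hold 1 each. The RUNX core TGTGGT or its reverse complement ACCACA, which can share at most 1 letter with a box, is in 3 of the 10 windows (the downstream CSF1R start, LCP1 and 1 of the 2 CD86 starts), against 11% of all. The windows shown hold 2, 6, 2 and 2 CpG dinucleotides in the order printed, against a median of 11 over all windows. Windows of genes that did not rise were low too, with 2 and 4 for CD86, 5 for TYROBP, 1 for PTPRC, 1 for CD68 and 5 for CD14. Of all windows, 38.1% hold 5 or fewer. These matches describe letters, not binding.

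Under UNC0638, 3 of the 10 genes rose and 0 fell by limma's test, on the brightest kept probe of each gene. Of the 28548 features tested in that way over the whole array, 1.64% rose and 1.79% fell. The 10 genes were picked with earlier results of these data known. Their counts, here and under the siRNAs below, therefore describe these genes and nothing more. CSF1R rose 2.23-fold, CD33 2.06-fold and LCP1 1.66-fold. At an unadjusted p under 0.05 the count was 6, and the median log2 ratio of the genes was 0.08, against -0.01 over all features. The same 3 genes were the calls when UNC0638 replicate 3 was left out.

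CSF1R, the receptor tyrosine kinase for CSF1, is measured by 1 probe that is printed on 10 spots of each array. Its treated-over-control ratios were 1.24, 1.44, 1.03, 1.03 and 1.04 on the log2 scale in UNC0638 replicates 1 to 5. The replicates lie close together and far from 0. The mean was 1.16 ± 0.18 (SD, n = 5; SE 0.07, adjusted p = 0.00012, limma). The 70 spots of the 7 UNC0638 arrays ranged from 0.70 to 1.79, with SDs of 0.10 to 0.25 within an array. In the WIZ siRNA replicates the ratios were 0.13 and 0.07, and the 40 spots ranged from -0.16 to 0.38. In the G9a siRNA replicates they were 0.41 and 0.22, and the 20 spots ranged from 0.01 to 0.52. No spot of either siRNA reached the lowest UNC0638 spot, as the plot of the 10 spots on each array shows. The mean under G9a siRNA, 0.32, was not called (adjusted p = 0.0526), and it was called under 5 of the 11 alternatives tried, with values over the 11 from 0.22 to 0.75.

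**Figure D1:**
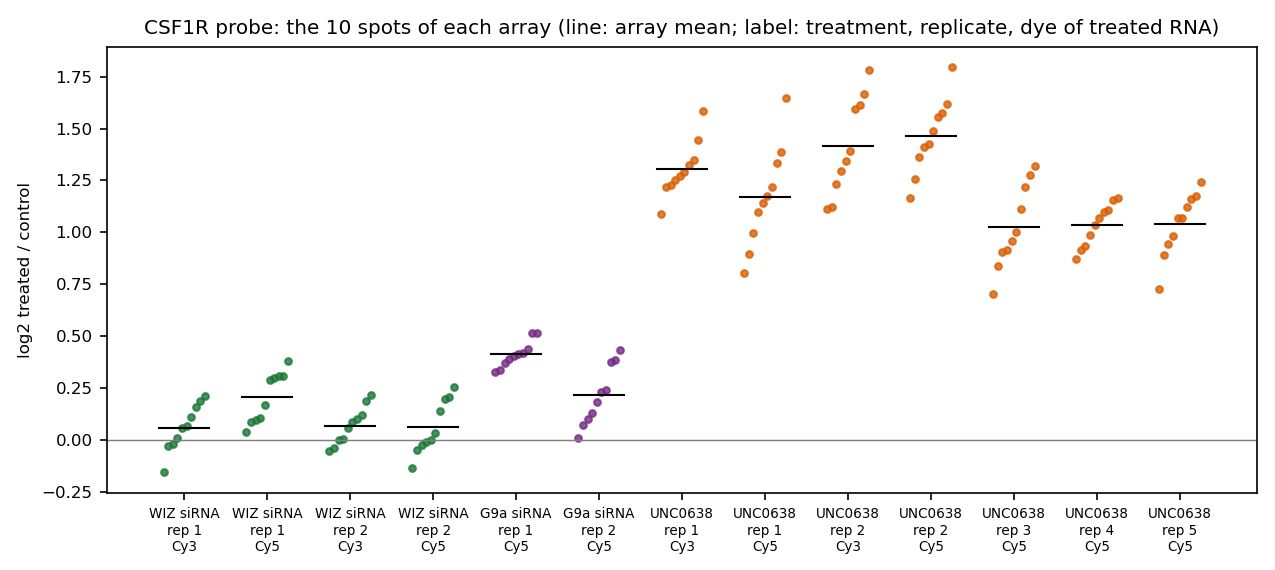
Log2 ratio of treated over control for the 10 spots of the CSF1R probe on each of the 13 arrays, with the array mean as a line and the treatment, replicate and dye of the treated RNA on the x axis. All 70 UNC0638 spots lie between 0.70 and 1.79, above the 40 WIZ siRNA spots (-0.16 to 0.38) and the 20 G9a siRNA spots (0.01 to 0.52).

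The level of CSF1R was low. In Cy3, its mean spot intensity was 329.1 and 368.9 for UNC0638 RNA of replicates 1 and 2, against 148.6 and 132.3 for DMSO RNA of the same replicates, over local backgrounds of 28.5 to 31.6. The probe was well above background on 7 of 7 arrays in UNC0638 RNA, and on 5 of 7 in DMSO RNA. It was above background on 2 of 4 arrays in each RNA of the WIZ siRNA comparison and on 1 of 2 in each RNA of the G9a siRNA comparison. On the arrays of set 1 every RNA in which it missed that limit was in Cy5. The probe lies at chr5:149432861-149432920 of build 37.1, minus strand, by the files' own annotation, which places it in CSF1R without naming an exon. It therefore does not tell the 2 starts apart.

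CD33, a sialic acid-binding receptor of the SIGLEC family that inhibits myeloid cells, had log2 ratios of 1.27, 1.24, 0.83, 0.83 and 1.04 in UNC0638 replicates 1 to 5. All 5 lie above 0, and the mean was 1.04 ± 0.21 (SD, n = 5; SE 0.08, adjusted p = 0.000232, limma). Under WIZ siRNA the ratios were -0.63 and -0.63, the opposite side of 0 on all 4 arrays, with array values from -0.90 to -0.36. That mean of -0.63 was not called in the fit over all treatments (adjusted p = 0.0669), and it was called under 3 of 11 alternatives, with values from -1.49 to -0.63. Under G9a siRNA the ratios were 0.12 and -0.03. Here CD33 was not well above background on any array in either RNA, so these values give no fold. The probe was above background on 1 of 4 arrays in WIZ siRNA RNA and 2 of 4 in its control RNA, and on 7 of 7 in UNC0638 RNA and 5 of 7 in DMSO RNA.

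LCP1, which encodes the actin-bundling protein L-plastin of leukocytes, was the member that moved with both WIZ siRNA and UNC0638. Its log2 ratios were 0.83 and 0.68 in the WIZ siRNA replicates, 0.01 and 0.17 in the G9a siRNA replicates, and 0.66, 0.78, 0.70, 0.70 and 0.83 in the UNC0638 replicates. The WIZ siRNA and UNC0638 values overlap, and both lie above the G9a siRNA values. The means were 0.76 ± 0.11 under WIZ siRNA (SD, n = 2; adjusted p = 0.00483, limma), 0.09 ± 0.11 under G9a siRNA (n = 2; adjusted p = 0.41) and 0.73 ± 0.07 under UNC0638 (n = 5; adjusted p = 0.00022). LCP1 was well above background on all 13 arrays in both RNAs. Its Cy3 intensity was 1080.5 to 1214 in WIZ siRNA RNA, against 509 to 615.5 in control siRNA RNA. In Cy5 the ranges overlapped, at 1292 to 1822 in WIZ siRNA RNA and 1202 to 1328.5 in control siRNA RNA. The ratio was higher with the treated RNA in Cy5 than in Cy3 in each of the 4 dye-swapped pairs, by a mean dye effect of 0.16 in each direction, and it stayed positive in both orientations. With 1 WIZ siRNA replicate left out, the other being taken to vary like the other groups, the WIZ siRNA value was 0.68 or 0.83 and was not called (adjusted p = 0.178 and 0.108). It was not called either on the authors' log2 ratios (0.80, adjusted p = 0.0858).

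**Figure D2:**
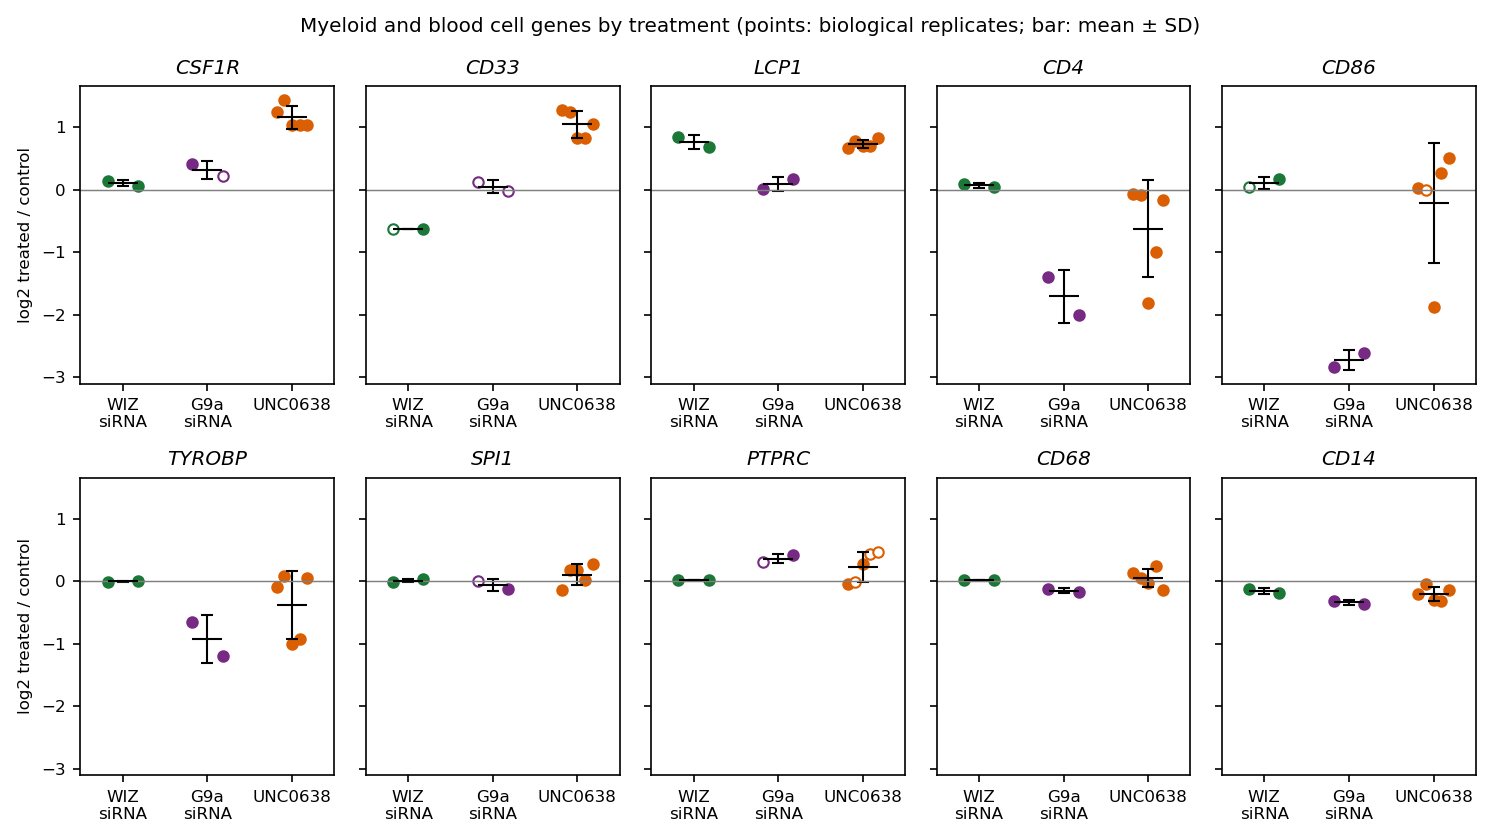
Log2 ratio of treated over control in each biological replicate, for the brightest kept probe of the 10 genes under WIZ siRNA, G9a siRNA and UNC0638, with mean and SD as black bars. Open points are replicates with an array on which neither RNA was well above background. CSF1R, CD33 and LCP1 lie above 0 in 5 of 5 UNC0638 replicates, and CD4, CD86 and TYROBP have their lowest mean under G9a siRNA. For CD4 and TYROBP, single UNC0638 replicates lie among the G9a siRNA values.

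Under G9a siRNA, 0 of the 10 genes rose and 4 fell (CD86, CD4, TYROBP and CD14), where 15.1% of all features rose and 18.3% fell. The 4 of 10 thus stand beside a background in which calls were frequent in both directions. At an unadjusted p under 0.05 the count was 6, and the median log2 ratio of the genes was -0.11, against -0.01 over all features. The calls depend on replicate 2: without it 0 of the 10 genes and 0 of all probes were called by limma, and without replicate 1, 2 of the 10 were.

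CD86, the co-stimulatory ligand of CD28 and CTLA4 on antigen-presenting cells, had the lowest ratios of the 10 genes. They were -2.84 and -2.61 in the G9a siRNA replicates, 0.04 and 0.17 in the WIZ siRNA replicates, and 0.02, 0.00, -1.88, 0.27 and 0.51 in the UNC0638 replicates. UNC0638 replicate 3 lies near the G9a siRNA values, and the other 4 lie near or above 0. The G9a siRNA mean was -2.72 ± 0.16 (SD, n = 2; SE 0.45, adjusted p = 0.00363, limma), and the UNC0638 mean was -0.21 ± 0.95 (n = 5; adjusted p = 0.712).

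The brightness of the CD86 probe, in control RNA too, split by array set. On the 8 arrays of set 1 its Cy3 intensity had a median of 75.5, near background, and on the 5 arrays of set 2, where Cy3 holds control RNA alone, a median of 7214. That is 95.5 times as bright, while the median kept probe was dimmer in set 2, at 0.55 times its set 1 brightness. CD86 ranked 2 of 34143 kept probes by this ratio, and 52 probes exceeded 10-fold. In Cy5 the probe was at 810 to 978 in G9a siRNA RNA, against 5794.5 to 7653 in Cy3 for the control siRNA RNA. It was at 428, 15701 and 13401 in Cy5 in UNC0638 replicates 3 to 5, against 1518, 8853.5 and 7214 in Cy3 for their DMSO RNA. The 3 ratios below -1 thus all come from arrays of set 2, on which treated RNA is always in Cy5. What the bright signal is, and its part in the CD86 result, was not tested.

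The start of the CD86 probe is printed because it is unusual in composition. The probe has 60 bases and lies at chr3:121839246-121839305 of build 37.1, plus strand, and its first 30 bases follow, with an unbroken run of A and G in capitals.
CD86 probe, bases 1 to 30: GAGAGAGAGAGAAAAAAGAGAGAtcttgat
The run is 23 bases long. Of the 16093 kept probes with a sequence in the files, 14 have a run of 20 or more and 4 a longer one than this.

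**Figure D3:**
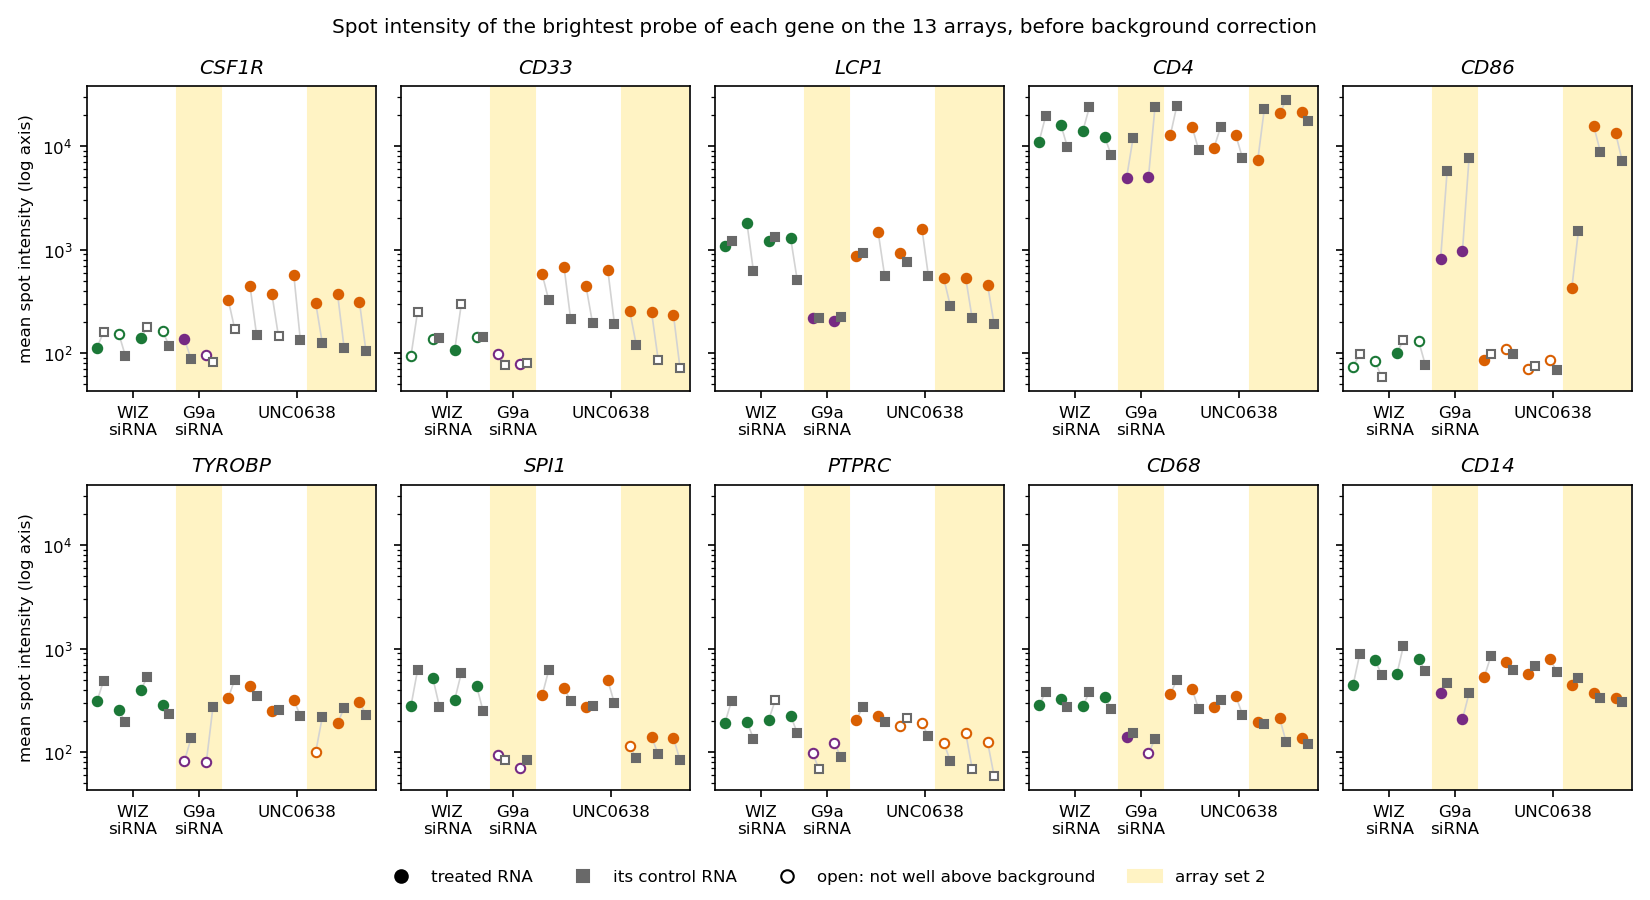
Mean spot intensity before background correction (log axis) of the brightest kept probe of the 10 genes on the 13 arrays, with treated RNA as circles beside its control RNA as squares. Open symbols were not well above background and shading marks array set 2. CD86 lies at a median of 75.5 in Cy3 in set 1 and 7214 in set 2, and CD4 is bright on every array.

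CD4, the co-receptor of helper T cells that monocytes also carry, had log2 ratios of -1.40 and -2.0 in the G9a siRNA replicates, 0.10 and 0.04 in the WIZ siRNA replicates, and -0.07, -0.08, -1.82, -1.0 and -0.16 in the UNC0638 replicates. The G9a siRNA mean was -1.70 ± 0.42 (SD, n = 2; adjusted p = 0.0084, limma). The UNC0638 mean of -0.63 ± 0.77 was not called (n = 5; adjusted p = 0.194). It was -0.07 in the replicates of set 1 and -0.99 in those of set 2, and -0.33 without replicate 3, all uncalled. The CD4 probe was well above background on all arrays in both RNAs, and its last 30 bases, at the 3′ end of a 60-base probe at chr12:6929910-6929969 of build 37.1, plus strand, hold the letters of the polyadenylation signal AATAAA 2 times, in capitals.
CD4 probe, bases 31 to 60: ctgaAATAAAaatacAATAAActtactata

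TYROBP, the adaptor DAP12 through which activating myeloid receptors signal, had ratios of -0.65 and -1.19 in the G9a siRNA replicates, -0.01 and 0.00 in the WIZ siRNA replicates, and -0.10, 0.09, -1.01, -0.92 and 0.06 in the UNC0638 replicates. On both G9a siRNA arrays TYROBP was not well above background in the treated RNA but was in the control RNA, so it was at least 1.77-fold lower (adjusted p = 0.0279, limma). This bound takes, per array, the higher of the probe's own signal and the lowest signal among probes well above background, on means of normalized log2 values, and is open to dye bias, since both arrays had the treated RNA in Cy5. The call was lost with either G9a siRNA replicate left out and with the array set as a term (adjusted p = 0.106). UNC0638 replicates 3 and 4 lie with the G9a siRNA values, and the UNC0638 mean of -0.38 ± 0.54 was not called (n = 5; adjusted p = 0.26).

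CD14, the co-receptor for bacterial lipopolysaccharide on monocytes, changed least of the called genes. Its ratios were -0.31 and -0.37 in the G9a siRNA replicates, -0.12 and -0.19 in the WIZ siRNA replicates, and -0.20, -0.05, -0.30, -0.32 and -0.14 in the UNC0638 replicates. All 9 replicates lie below 0. The mean was -0.34 ± 0.04 under G9a siRNA (SD, n = 2; adjusted p = 0.0125, limma), -0.15 ± 0.05 under WIZ siRNA (n = 2; adjusted p = 0.765) and -0.20 ± 0.11 under UNC0638 (n = 5; adjusted p = 0.079). The probe was well above background on every array in both RNAs. The G9a siRNA call was lost with either replicate left out (adjusted p = 0.0655 and 0.163).

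Under WIZ siRNA, LCP1 alone of the 10 genes was called, so 1 rose and 0 fell, where 0.0701% of all features rose and 0.487% fell. At an unadjusted p under 0.05 the count was 2, LCP1 and CD33. The median log2 ratio of the genes was 0.02, against 0.01 over all features.

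SPI1, PTPRC and CD68 were not called under any treatment. SPI1, the gene of PU.1, had means of 0.01 ± 0.03 under WIZ siRNA (SD, n = 2), -0.06 ± 0.10 under G9a siRNA (n = 2) and 0.10 ± 0.17 under UNC0638 (n = 5), with adjusted p of 1, 0.697 and 0.406 by limma. Under WIZ siRNA its sign followed the dye: with the treated RNA in Cy3 the ratios were -0.40 and -0.25, and in Cy5 0.38 and 0.30, so that the small mean is one of 2 opposed values. On the G9a siRNA arrays SPI1 was well above background on 0 of 2 arrays in the treated RNA and 1 of 2 in the control RNA. CD68, a lysosomal glycoprotein of macrophages, had means of 0.02, -0.15 and 0.05 under WIZ siRNA, G9a siRNA and UNC0638 (adjusted p = 1, 0.229 and 0.672, limma). In G9a siRNA RNA it was well above background on 1 of 2 arrays, and in control RNA on 2 of 2.

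PTPRC encodes CD45, the tyrosine phosphatase on the surface of all nucleated blood cells. Of its 5 probes, 3 passed the filter on dim probes, and the other 2 (A_23_P12392 and A_33_P3364811) had means of 0.01 and 0.00 under WIZ siRNA, 0.07 and 0.33 under G9a siRNA and 0.04 and 0.08 under UNC0638, at or below background on most arrays. The brightest, A_33_P3364808, had means of 0.02 under WIZ siRNA, 0.36 under G9a siRNA and 0.22 under UNC0638 (adjusted p = 1, 0.0567 and 0.185, limma). On the G9a siRNA arrays it was above background on 0 of 2 arrays in the treated RNA and 1 of 2 in the control RNA, and its treated mean was the higher one, so no fold is given. Within UNC0638 it was -0.03 in set 1 and 0.39 in set 2, and it was called when UNC0638 was taken from set 2 only (adjusted p = 0.0306, limma). In replicates 3, 4 and 5, which make up set 2, it was not well above background in UNC0638 RNA. In DMSO RNA it was so in replicate 3 only, so no fold is given there either. The probe A_33_P3309526 read 0.06, 0.38 and 0.32 in the same order of treatments and turned its sign with the dye in all 4 swapped pairs, with a dye effect of 0.45 in each direction. The probe A_33_P3364821 read 0.02, -0.06 and 0.11, and on the G9a siRNA arrays it was not well above background in either RNA.

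**Figure D4:**
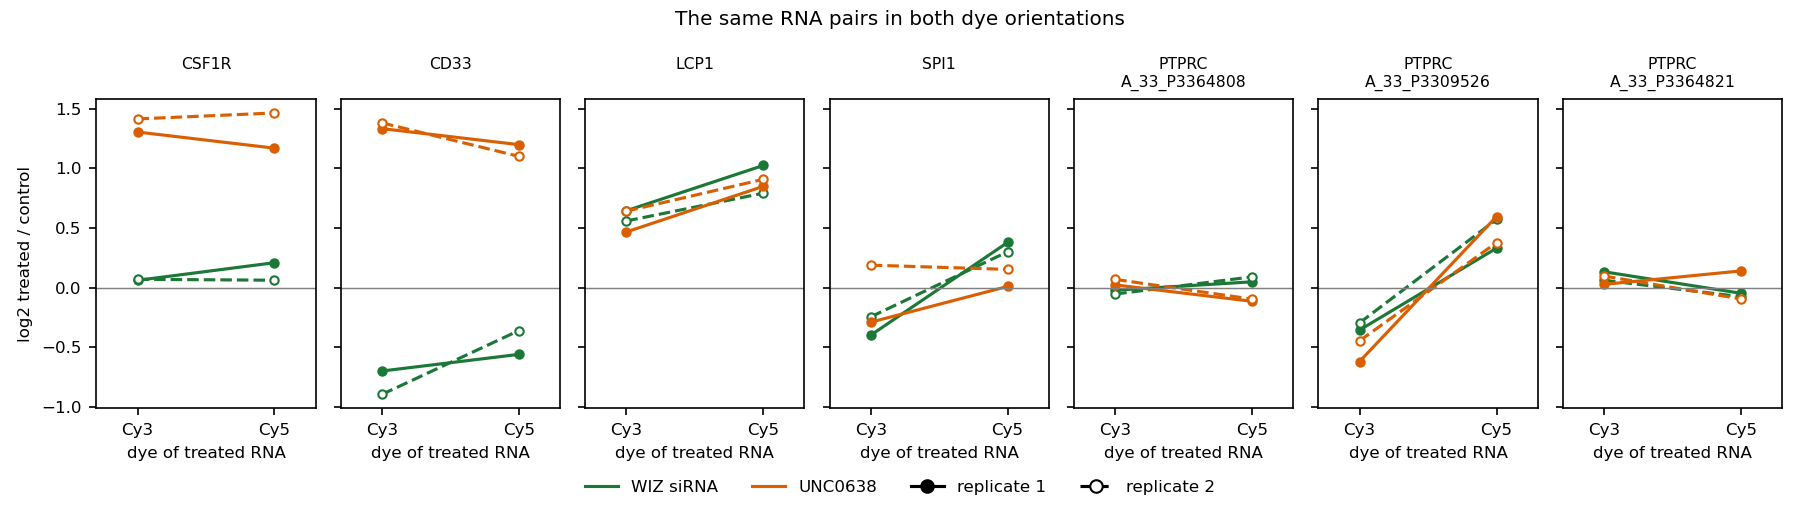
Log2 ratio of treated over control with the treated RNA in Cy3 and in Cy5, joined for each of the 4 dye-swapped RNA pairs (WIZ siRNA and UNC0638, replicates 1 and 2), for CSF1R, CD33, LCP1, SPI1 and the 3 kept PTPRC probes. CSF1R, CD33 and LCP1 keep their side of 0 in both orientations, and the PTPRC probe A_33_P3309526 changes side in all 4 pairs.

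The treatments were then set against each other in the same fit. Dose, time, transfection and, for the siRNAs, array set differ along with the treatment and cannot be told apart from it. The dyes are not balanced either. WIZ siRNA was dye-swapped throughout, UNC0638 in replicates 1 and 2 only, and G9a siRNA RNA was always in Cy5. With the dye effect subtracted, 2600 probes were called for G9a siRNA against UNC0638 (4369 without). For WIZ siRNA against G9a siRNA 3877 were (7084 without). Members called were then 4 and 3, against 4 and 4. For WIZ siRNA against UNC0638, 0 of the 10 genes were higher and 2 were lower (CD33 and CSF1R), where 0.0911% of all features were higher and 0.683% lower. CD33 differed by -1.67 on the log2 scale (95% interval -1.99 to -1.35, adjusted p = 0.00129, limma) and CSF1R by -1.06 (-1.35 to -0.76, adjusted p = 0.00992). The CD33 probe was well above background on only 1 of 4 arrays in WIZ siRNA RNA and 2 of 4 in its control RNA. No WIZ siRNA array had both RNAs above it, so the size of the CD33 difference is uncertain. With either WIZ siRNA replicate left out CD33 was called and CSF1R was not (-1.09 and -1.02, adjusted p = 0.12 and 0.221). For LCP1 the difference was 0.02, with an interval of -0.19 to 0.23, which is narrow beside the change of 0.73 under UNC0638.

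For G9a siRNA against UNC0638, 0 genes were higher and 4 lower, where 6.02% of all features were higher and 6.52% lower. LCP1 differed by -0.64 (-0.85 to -0.43) and CSF1R by -0.84 (-1.13 to -0.55), with adjusted p of 0.0184 and 0.0192 by limma. CD33 differed by -0.99 (adjusted p = 0.0184, limma), but its G9a siRNA ratios hold no signal above background in either RNA. The CD33 values against G9a siRNA therefore give no size of a difference. CD86 differed by -2.51 (-3.70 to -1.32, adjusted p = 0.0254). Against the UNC0638 replicates of set 2 alone, which share the arrays' set with G9a siRNA, CSF1R, CD33 and LCP1 differed by -0.72, -0.85 and -0.65 and CD86 by -2.36, and 0 of the 10 were called by limma, where 1 of all probes was (adjusted p = 0.1 for CSF1R, CD33 and LCP1). Against those of set 1 alone 7 were called, where 13087 of the 34143 probes were. Without G9a siRNA replicate 2, 0 of the 10 were called. For WIZ siRNA against G9a siRNA, 3 genes were higher (CD86, CD4 and LCP1) and 1 was lower (CD33), where 11% of all features were higher and 8.97% lower. LCP1 differed by 0.66 (0.41 to 0.91, adjusted p = 0.0106, limma), CD4 by 1.77 (0.57 to 2.96, adjusted p = 0.0441) and CD86 by 2.82 (adjusted p = 0.018). The CD86 probe was well above background on only 1 of 4 arrays in WIZ siRNA RNA and 1 of 4 in its control RNA. Its value is thus set against WIZ siRNA ratios mostly at background, and gives no size of a difference. The CD33 value of -0.68 (adjusted p = 0.0251) is set against G9a siRNA ratios that hold no signal above background in either RNA, so it gives no size of a difference. With the array set as a term, or with any 1 of the siRNA replicates left out, at most 1 of these 4 was called. The LCP1 value stayed near its size (0.58 to 0.74), and CD86, with the limit just given, read 2.45 to 2.94. CD4 was at 0.85 with the set as a term and at 1.47 to 2.07 with a replicate left out.

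Within UNC0638 the 3 genes that rose did so in both array sets. In set 1 (replicates 1 and 2) CSF1R read 1.34, CD33 1.25 and LCP1 0.72, and in set 2 (replicates 3 to 5) they read 1.03, 0.90 and 0.74, with every one called by limma. CD4, CD86 and TYROBP read -0.07, 0.01 and -0.0041 in set 1, and -0.99, -0.36 and -0.62 in set 2, with none called. On the authors' log2 ratios CSF1R read 1.63 and CD33 1.54 under UNC0638, and on their log10 table, rescaled to log2, 1.85 and 1.70, with both called by limma each time.

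The rest of the pathways was described from 10 lists of blood cell genes, of which 105 of 144 genes had a kept probe. Of these 0 rose and 1 fell under WIZ siRNA, 8 rose and 21 fell under G9a siRNA, and 10 rose and 2 fell under UNC0638. The shares under UNC0638, 9.52% and 1.90%, stand beside 1.64% and 1.79% of all features. Those under G9a siRNA, 7.62% and 20%, stand beside 15.1% and 18.3%, so falls were near that background and rises below it. The median log2 ratio of the 105 was 0.01, -0.04 and -0.004 in that order of treatments, beside 0.01, -0.01 and -0.01 over all features. These genes were picked with results of these data known, so the shares describe the lists and nothing more.

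Around CSF1R, 16 of 18 ligand and signalling genes were measured. INPP5D, the lipid phosphatase SHIP1 that dampens signals from blood cell receptors, went opposite ways: it fell under WIZ siRNA (-0.66 and -0.66 in the 2 replicates, adjusted p = 0.0385) and rose under UNC0638 (0.34 to 0.77 in 5 of 5 replicates, mean 0.50, adjusted p = 0.00484, limma), and the difference of -1.16 was itself called (adjusted p = 0.00543). It was well above background on every array of both treatments. PLCG2, the phospholipase of B cells and myeloid cells, rose by 0.33 under UNC0638. Under G9a siRNA, where 15.1% of all features rose and 18.3% fell, 2 rose and 4 fell, among them KIT, the stem cell factor receptor (1.02), the adaptor GRB2 (-0.80) and the kinases SYK (-0.69) and LYN (-0.58). Of the 8 measured receptors that pair with TYROBP or resemble them, 0 were called in any treatment, and 0, 1 and 1 had an unadjusted p under 0.05 under WIZ siRNA, G9a siRNA and UNC0638. Of the 6 measured relatives of CD33 in the SIGLEC family, 0 were called under WIZ siRNA or UNC0638, where 0 and 0 also had an unadjusted p under 0.05. MAG, of myelin, was called under G9a siRNA (-0.36), with the treated RNA below background on both arrays and no fold above the bound.

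Among 17 measured transcription factors of myeloid cells, 1 rose and 2 fell under UNC0638, beside 1.64% and 1.79% of all features. EGR1, an immediate early gene that also acts in monocytes, rose by 0.78 (0.19 to 1.18 in 5 of 5 replicates, adjusted p = 0.0186, limma), MAF fell by 0.32 and BATF3, a factor of dendritic cells, fell by 0.26. Under G9a siRNA 4 of the 17 rose and 6 fell, beside 15.1% and 18.3% of all features, among them EGR1 (1.57), CBFB, the partner of RUNX factors (0.67), CEBPA (-1.15) and CEBPD (-4.36, SE 0.84, adjusted p = 0.00519). CEBPD resembled CD4 in that UNC0638 replicate 3 read -4.34 and replicate 4 -1.13, against 0.07, -0.23 and -0.45 in replicates 1, 2 and 5. Under WIZ siRNA 0 were called, and 2 had an unadjusted p under 0.05.

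Among 14 measured markers of monocytes and macrophages, FCGR2A, an activating receptor for antibodies, rose under UNC0638 by 0.59 (0.35 to 0.83 in 5 of 5 replicates, adjusted p = 0.00215, limma), with the probe above background on 5 of 7 arrays in UNC0638 RNA and 4 of 7 in DMSO RNA. LY86 was at least 1.37-fold lower under G9a siRNA, and no other member of the list was called in a treatment. The treated RNA of LY86 was below background on both G9a siRNA arrays. Its bound equals the measured ratio and is open to dye bias, as for TYROBP. None of the 6 measured granule genes of granulocytes was called, with 0 at an unadjusted p under 0.05 in each of the 3 treatments.

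Among 15 measured pan-leukocyte genes, 3 rose and 0 fell under UNC0638, beside 1.64% and 1.79% of all features. Among them ARHGDIB rose by 0.65 and the tetraspanin CD53 by 0.29 (adjusted p = 0.0137 and 0.0386, limma). ARHGDIB was well above background on 4 of 7 arrays in UNC0638 RNA and 2 of 7 in DMSO RNA, and CD53 on 3 of 7 and 2 of 7. Under G9a siRNA 0 of the 15 rose and 5 fell, beside 15.1% and 18.3% of all features. Among them were the NADPH oxidase subunit CYBA (-1.38), the GTPase RAC2 (-0.83), CORO1A (-0.65) and NCF1, which was at least 2.73-fold lower. The treated RNA of NCF1 was below background on both arrays. Its bound equals the measured ratio and is open to dye bias, as for TYROBP. Under WIZ siRNA 0 were called, and 1 had an unadjusted p under 0.05. Of 11 measured T and NK cell markers, IL2RB (0.34) and CD8A (0.29) rose under UNC0638. CD2 (0.36) and CD8A (0.34) rose under G9a siRNA. These rises stand beside 1.64% of all features under UNC0638 and 15.1% under G9a siRNA. No marker was called under WIZ siRNA, with 0 at an unadjusted p under 0.05.

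Among 3 measured B cell genes, BLNK, the adaptor of B cell receptor signalling, had the largest call of all these lists under UNC0638. Its log2 ratios were 1.05, 1.20, 1.17, 0.84 and 1.16 in replicates 1 to 5, a mean of 1.08 ± 0.15 (SD, n = 5; adjusted p = 0.000146, limma), against 0.06 and -0.02 in the WIZ siRNA replicates and 0.32 and -0.01 in the G9a siRNA replicates. BLNK was well above background on 7 of 7 UNC0638 arrays in both RNAs, and was lower by 1.06 for WIZ siRNA and by 0.93 for G9a siRNA than for UNC0638 (adjusted p = 0.00846 and 0.0184). CD79A was called under G9a siRNA (-0.55). Of 9 measured red cell and platelet markers, 0 were called under WIZ siRNA or UNC0638 (1 and 0 at an unadjusted p under 0.05). Under G9a siRNA 0 rose and 3 fell, beside 15.1% and 18.3% of all features. Among them were EPOR (-0.42) and ITGA2B (at least 1.19-fold lower, but 0.072 and uncalled after a GC trend was removed). The treated RNA of ITGA2B was below background on both arrays. The other plastins, PLS3 and PLS1, rose under G9a siRNA by 0.70 and 0.50 and were not called under WIZ siRNA or UNC0638 (0 and 2 at an unadjusted p under 0.05), so LCP1 is the member of that family called under those 2 treatments. Of the 12 markers of the cell line, 0 were called under WIZ siRNA (3 at an unadjusted p under 0.05), 2 rose and 3 fell under G9a siRNA, near the 15.1% and 18.3% of all features, and 1, LHX1 (-0.53), fell under UNC0638.

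**Figure D5:**
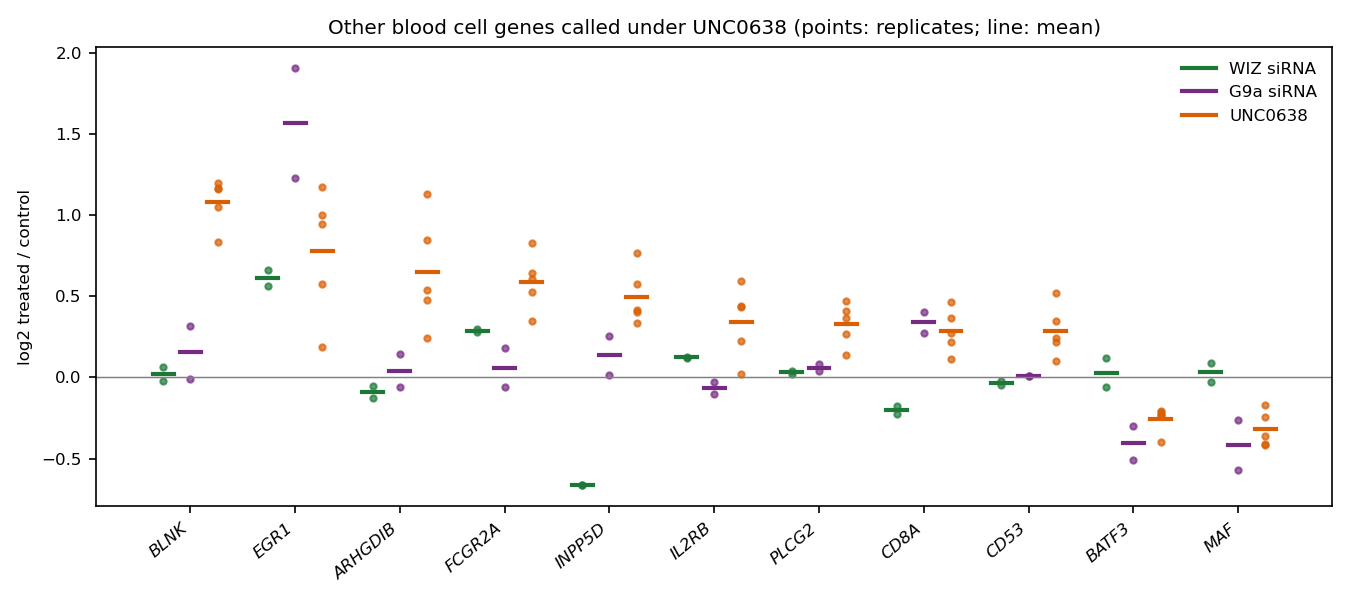
Log2 ratio of treated over control under WIZ siRNA, G9a siRNA and UNC0638, with replicates as points and the mean as a line, for the genes of the blood cell lists that are named here as called under UNC0638. BLNK (mean 1.08) and EGR1 (0.78) are highest under UNC0638, and INPP5D is below 0 under WIZ siRNA (-0.66) and above it under UNC0638 (0.50).

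The genes whose brightest probes most resembled each called member over the 9 biological replicates are given with Pearson's r, as a description without a test, since the replicates share treatments and array sets. For CSF1R they were LOC254896 (0.989), SLC18A3 (0.987) and FBP1 (0.986), for CD33 ASPHD1 (0.997), FBP1 (0.987) and GSTO2 (0.985), and for LCP1 GHDC (0.960), CDAN1 (0.956) and PPT2 (0.956). The likeness to LCP1 is in how the replicates vary and not in level: GHDC had means of 0.18, -0.84 and 0.07 under WIZ siRNA, G9a siRNA and UNC0638, CDAN1 0.15, -0.54 and 0.08, and PPT2 -0.06, -0.80 and -0.0029. Levels differ from CSF1R too. In the same order of treatments SLC18A3 had means of -0.22, -0.16 and 0.12 and LOC254896 -0.43, -0.25 and 1.11, against 0.10, 0.32 and 1.16 for CSF1R. FBP1 thus stands on the lists of both CSF1R and CD33, with means of -0.45 under WIZ siRNA, -0.04 under G9a siRNA and 0.81 under UNC0638. For CD4 they were SYNE1 (0.998), PLEKHG5 (0.996) and PPP1R14A (0.996), for CD86 NUDT14 (0.993), CYB561 (0.991) and DSE (0.984), for TYROBP APBB2 (0.989), DUSP8 (0.986) and FRMD3 (0.983), and for CD14 RBKS (0.98), TRAIP (0.968) and CCDC6 (0.960). The first of each of these 4 lists has its lowest mean under G9a siRNA, as the member does.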

How the data were processed

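Total RNA of HEK293T cells was hybridised to Agilent Human 8x60K 2-colour arrays. Per the file headers, the deposited intensity values give each channel's mean spot brightness and median local background. An authors' log2 ratio of the 2 channels stands beside them, and the authors' deposited series table holds log10 ratios. Set against the arrays' own ratios, that table ran control over treated on the 8 arrays of set 1 and treated over control on the 5 of set 2, and was turned accordingly. Its centring is unknown, and its column medians were 0, -0.00301, 0.00794 and 0.00818 (UNC0638 replicates 1 and 2 with treated RNA in Cy3, then in Cy5), -0.00413, -0.01, 0 and 0.0032 (WIZ siRNA, same order), -0.00359, -0.00609 and -0.00882 (UNC0638 replicates 3 to 5), and 0.00178 and -0.00027 (G9a siRNA). Slide and scan batch are not given in the sources used here, so the array sets, split by the lowest Cy3 background SD, took the place of slide as the batch.

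All 62976 spots were corrected with normexp (offset 50, limma 3.58.1, R 4.3.3) and loess-normalized array by array, the 4259 control spots carrying weight 0. Spots of a probe were averaged, ratios turned to treated over control, and dye-swapped arrays averaged, giving 9 biological replicates. Of 42405 probes, 34143 were kept, being well above background on at least 50% of the arrays of 1 or more of the 6 RNA groups. One limma fit with a mean per treatment (6 residual and 3.33 prior degrees of freedom) gave all tests, which are two-sided. Counts over genes use the brightest kept probe of each gene. Median spot intensity was 146 to 308 in Cy3 and 120 to 468 in Cy5, 47.6% to 90.8% of probes were well above background in treated and 57.2% to 92.2% in control RNA, and precision is limited by how few arrays there are. Alternatives were no background correction, both sets of authors' ratios, no filter on dim probes, the brightest probes alone, each treatment on its own replicates, a subtracted dye effect, the array set as a term, UNC0638 within each set, a replicate block, a removed GC trend and each replicate left out. The scripts were tested on simulated data.

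The 10 genes and all lists were chosen with earlier results of these data known. From each list the text names up to 4 called genes with the largest log2 ratio in a comparison, and for each called member the 3 named genes with the highest correlation. Replicate numbers occur in every treatment, and the samples were taken as unpaired. Deviations of same-numbered replicates from their treatment means correlated at -0.01 and 0.01 (UNC0638 with WIZ siRNA), 0.37 and -0.28 (UNC0638 with G9a siRNA) and -0.03 (WIZ siRNA with G9a siRNA). With 2 replicates per siRNA the deviations mirror each other, so this check cannot settle whether the samples were paired. Only 47.1% of kept probes have a sequence in the files, so a correction for GC content is void for counts. Probe coordinates are those of the files (build 37.1). Promoters are from RefSeq (GRCh38.p14). A few genes of the lists are counted but not reported here by name.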

Additional observations from a re-analysis of the deposited data

Results flagged for a closer look

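CD86 in UNC0638 replicate 3, at -1.88 on the log2 scale, lay far from the other 4 replicates: its gap to the nearest was 0.79 of the whole range, above Dixon's 95% limit of 0.71 for 5 values. It was the only one of the 12 kept probes of these genes to do so, where chance alone marks about 1 in 20. The 5 CD86 values are not of 1 kind, so a limit for 5 like values cannot settle whether replicate 3 is outlying. Replicates 1 and 2 average dye-swapped arrays of set 1, where the CD86 spots were at 68.5 to 109.5, near background. Replicates 3 to 5 are single arrays of set 2, where the probe was bright.

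A difference between treatments was called, by the contrast in the fit itself, for 5 genes. WIZ siRNA minus UNC0638 was -1.06 for CSF1R and -1.67 for CD33. G9a siRNA minus UNC0638 was -0.84 for CSF1R, -0.99 for CD33, -0.64 for LCP1 and -2.51 for CD86. WIZ siRNA minus G9a siRNA was -0.68 for CD33, 0.66 for LCP1, 1.77 for CD4 and 2.82 for CD86. CD33 was below background on both G9a siRNA arrays in both RNAs, and the CD86 probe was bright in array set 2 alone. The part of either in these differences was not tested. In WIZ siRNA RNA, CD33 was well above background on only 1 of 4 arrays. The CD33 values against G9a siRNA, and the CD86 value of 2.82, give no size of a difference. With the array set as a term, 0 genes were called for WIZ siRNA against G9a siRNA. Against UNC0638 of set 2 alone, 0 were called for G9a siRNA.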

How the results depend on the processing

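The 3 rises under UNC0638 (CSF1R, CD33 and LCP1) kept their direction and call under all 16 alternatives each, with lowest values of 1.03, 0.90 and 0.64. Over the members' values under the alternatives, 774 of 846 stayed on their side of the threshold in the same direction or uncalled, 49 lost a call, 23 gained one and 0 called ones reversed. With a replicate left out, 17 to 42 probes and 0 members were called under WIZ siRNA (in all, 176 and 1), 0 to 7211 and 0 to 2 under G9a siRNA (11693 and 4), 604 to 950 and 3 under UNC0638 (1106 and 3), 23 to 344 and 1 to 2 for WIZ siRNA against UNC0638 (244 and 2), 0 to 9924 and 0 to 5 for G9a siRNA against UNC0638 (4369 and 4), and 1 to 4621 and 0 to 1 for WIZ siRNA against G9a siRNA (7084 and 4). A siRNA replicate left alone is taken to vary like the other groups. For G9a siRNA against UNC0638, leaving out UNC0638 replicate 3 gave the 9924.

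Probes called moved by more than 1.5 times under these settings. No background correction gave 113 for WIZ siRNA. The authors' log2 ratios gave 31 for WIZ siRNA, 549 for UNC0638, 70 for WIZ siRNA against UNC0638 and 2163 for G9a siRNA against UNC0638, and their log10 table gave 61, 624, 125 and 1553 in that order and 3921 for WIZ siRNA against G9a siRNA. Each treatment on its own replicates gave 8816 for WIZ siRNA and 413 for UNC0638. Subtracting the dye effect gave 2600 for G9a siRNA against UNC0638 and 3877 for WIZ siRNA against G9a siRNA. The array set as a term gave 64 for WIZ siRNA, 7455 for G9a siRNA, 2165 for UNC0638, and 147, 295 and 2 for the 3 contrasts in the order above. UNC0638 from set 1 alone gave 540 against WIZ siRNA and 13087 against G9a siRNA, and from set 2 alone 96 and 1. The cause was not tested.

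Members called moved likewise. For WIZ siRNA they were 0 on the authors' log2 ratios, 3 on its own replicates and 2 with the array set as a term. That term gave 5 for UNC0638 (with CD14 and PTPRC added) and 0 for WIZ siRNA against G9a siRNA. The PTPRC probe was well above background on only 2 of 7 arrays in UNC0638 RNA and 4 of 7 in DMSO RNA. G9a siRNA against UNC0638 gave 7 with set 1 alone and 0 with set 2 alone. With the replicate block, probes called were 585, 13177 and 14152 for the 3 contrasts, and members called 7 for G9a siRNA against UNC0638. The check of pairing could not settle whether such a block belongs in the fit. ITGA2B under G9a siRNA read 0.072 after the GC trend was removed, uncalled, against -0.39.

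Signal over background limits CSF1R, CD33, CD86, TYROBP, SPI1, PTPRC and CD68, which were at background on some arrays.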
